A study of Mus musculus with 8 samples.

Results

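Crabp1, Crabp2, Rbp4, Aldh1a1, Aldh1a2, Aldh1a3, Aldh1a7, Stra6 and Dhrs3 are 9 mouse genes that carry retinoids or convert them to and from retinoic acid, and their kidney levels were described on 8 arrays. Every non-control probe whose name on the array is one of these genes was taken, which gave 12 of the 56605 probes and covered 8 of the 9 genes, among 36868 gene names on the array. No probe carried the name Crabp2, which was not analysed here. The genes were chosen with results of these arrays already known over all 4 groups, so their own differences are given as descriptions, without a test.

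The study measured RNA from whole kidney of male mice aged 20 weeks, with 2 mice in each of 4 groups. Normal mice were C57BLKS/J Iar -m+/m+. The other 3 groups were C57BLKS/J Iar -+Leprdb/+Leprdb (db/db), homozygous for a leptin receptor mutation that causes obesity and diabetes, and were left untreated, given control-miRNA-PEI-NPs, or given miRNA-181b-5p-mimic-PEI-NPs, which are nanoparticles of polyethylenimine loaded with a control miRNA or a mimic of miR-181b-5p. Dose, route and timing were not given in the sources used here. All db/db groups therefore shared the mutation, and no group of normal mice received nanoparticles. The labels number the mice of a group but say nothing of litters or cages, so the p-values below measure the spread between these animals and arrays only. The endogenous miRNA that the mimic is named for is shown with its seed, bases 2 to 8, in capitals (RefSeq, GRCm38.p6).

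mmu-miR-181b-5p: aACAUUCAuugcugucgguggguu

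Retinol, vitamin A, travels in blood bound to retinol-binding protein (Rbp4), usually joined to transthyretin (Ttr), and the kidney takes the filtered complex back up in the proximal tubule through megalin (Lrp2). Inside cells, retinol dehydrogenases oxidise retinol to retinal, reductases such as Dhrs3 return retinal to retinol, and retinal dehydrogenases of the Aldh1a family make retinoic acid. Retinoic acid is held by Crabp1 and Crabp2, broken down by Cyp26 enzymes, and read by the nuclear receptors Rara, Rarb and Rarg with their Rxr partners, which bind repeated hexamers of DNA.

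Every array held 59305 spots of which 56.5% to 62.5% were well above background, with 0 saturated, and all 8 arrays lay on 1 slide. Levels are log2 of the signal over the array's 75th percentile, so a level of 0 is the signal at that percentile, and levels of different probes are not comparable with each other. The 2 mimic arrays were the least alike pair (r = 0.976 over genes, against 0.992 to 0.997 in the other groups), and most of that lay in mimic replicate 1 (81.6 on the first principal component, against -54.8 to 17.6 for the other 7). For that reason most differences of the mimic group are given both with and without it. Proximal tubule markers were detected on every array (10 of 10), with a lower summed level on mimic replicate 1 (756, against 1274 to 2180 elsewhere). The highest Lepr probe read 3.12 and 3.08 in normal kidney and 1.98 to 2.36 on the 6 db/db arrays. Row or column on the slide differed between the groups in every comparison made, and cannot be told apart from group.

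Across the 8 measured genes, 3 had higher levels on all 6 db/db arrays than on both normal arrays: Aldh1a1, Aldh1a2 and Crabp1. None was lower on all 6. Over all genes tested, 14.0% lay above both normal arrays on every db/db array and 20.1% below. Untreated db/db and normal arrays did not overlap for 5 of the 8 genes (63.2% of all genes), and 2 of the 8 did not overlap in each of the other comparisons, where the shares over all genes were 39.8% for control miRNA against untreated, 39.4% for mimic against control miRNA and 47.8% for mimic against untreated. In a limma fit over 22368 genes, 3.50% passed an adjusted p of 0.05 between untreated db/db and normal kidney, and 1 of the 8 (Crabp1, higher) did. Of all genes, 1.24% passed as higher in db/db and 2.26% as lower. The genes were chosen with these contrasts known, so nothing is read from these counts. All 8 passed the filter on dim probes, Crabp1 only through the untreated and control-miRNA db/db groups.

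**Figure D1:**
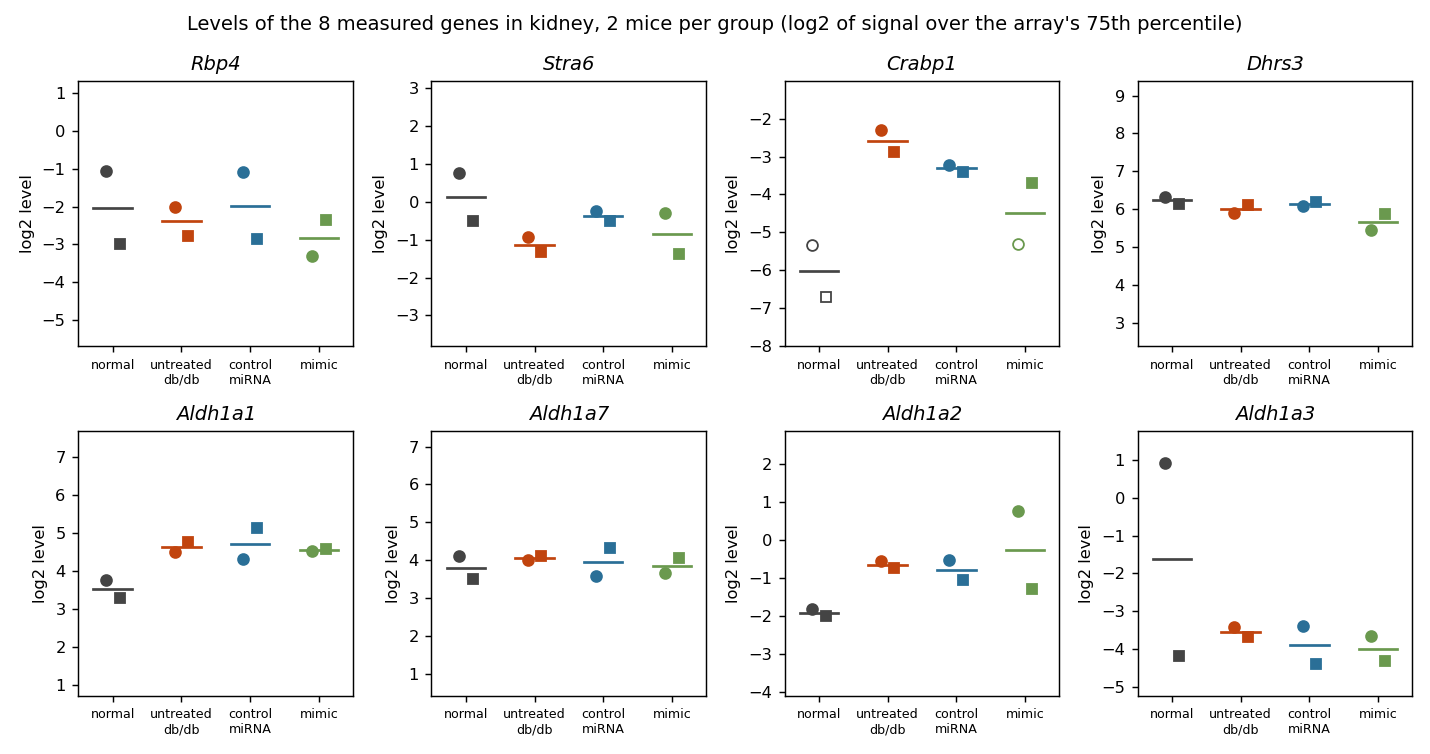
Log2 level of each measured gene (y axis, each panel centred on its own gene) in the 4 groups (x axis). Circles are replicate 1, squares replicate 2, open symbols arrays not well above background, and bars group means of 2 mice. Aldh1a1 and Aldh1a2 lie above both normal arrays on all 6 db/db arrays, and Aldh1a3 is high on normal replicate 1 alone.

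Rbp4, the plasma carrier of retinol, differed more between mice of a group than between groups. Its level was -1.07 and -2.99 in normal kidney, -2.0 and -2.79 in untreated db/db, -1.10 and -2.86 with control miRNA, and -3.30 and -2.36 with the mimic. The high arrays were normal replicate 1 and control-miRNA replicate 1, and all groups overlapped. Untreated db/db minus normal was -0.36 (SE 0.82) on the log2 scale, and it was 0.60 without normal replicate 1 and -1.32 without normal replicate 2. Group means ran from control miRNA (-1.98 ± 1.25, SD, n = 2) through normal (-2.03 ± 1.36) and untreated (-2.39 ± 0.56) to mimic (-2.83 ± 0.66), and no neighbours in that order differed beyond their spread.

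Normal replicate 1 and control-miRNA replicate 1 were also the arrays with most Adipoq, the adiponectin gene of fat cells. Adipoq read 0.39 and -3.26 in normal kidney, -6.45 and -6.14 in untreated db/db, -1.45 and -6.14 with control miRNA, and -4.80 and -5.04 with the mimic. It was well above background on 4 of the 8 arrays. Retn and Cidec were also highest on that pair of arrays, but Plin1, Cfd, Lep, Cidea, Plin4 and Fabp4 did not share the pair. The 9 fat cell markers had a summed level (linear, relative to the 75th percentile) of 73.5 and 10.3 in normal kidney, 10.9 and 9.46 in untreated db/db, 12.2 and 11.3 with control miRNA and 13.6 and 10.2 with the mimic. Except on normal replicate 1, that sum rested mostly on Fabp4. The part of fat cells in the Rbp4 levels was not tested. In whole tissue, fewer cells of a type and less RNA per cell cannot be told apart.

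Stra6, the membrane receptor that takes retinol from Rbp4, was lower in untreated db/db than in normal kidney. Its level was 0.77 and -0.52 in normal kidney, -0.94 and -1.32 in untreated db/db, -0.24 and -0.51 with control miRNA, and -0.29 and -1.39 with the mimic. Both untreated arrays lay below both normal arrays and below both control-miRNA arrays, mimic replicate 1 lay within the control-miRNA range, and mimic replicate 2 lay below both untreated arrays. Untreated minus normal was -1.25 (SE 0.51), a 2.38-fold lower mean, and -0.61 without normal replicate 1. Control miRNA minus untreated was 0.75 (SE 0.51). Mimic minus control miRNA was -0.46 (SE 0.51), 0.09 without mimic replicate 2 and -1.02 without mimic replicate 1, and mimic minus untreated was 0.29 (SE 0.51), or -0.26 without mimic replicate 1. In order of mean, normal (0.12 ± 0.91, SD, n = 2), control miRNA (-0.37 ± 0.19), mimic (-0.84 ± 0.78) and untreated (-1.13 ± 0.26) formed a series in which no neighbours differed beyond their spread. The 8 urothelial markers, 6 of them detected on every array, summed to 12.8 and 3.45 in normal kidney, 1.12 and 1.10 in untreated db/db, 6.46 and 1.48 with control miRNA, and 6.43 and 1.20 with the mimic. Replicate 1 was the higher array of each group for this sum and for Stra6, but not for every marker. Upk1a was higher on replicate 2 in untreated db/db (-0.87 and -0.69) and with the mimic (-1.24 and -0.74). Upk3a was higher on untreated replicate 2 (-3.07 and -2.76). On mimic replicate 1 the sum rested mostly on Krt20 (1.84) and Krt5 (0.74). The part of these markers in the Stra6 levels was not tested. Only 1 probe read Stra6, at 58000379 to 58000990 on chromosome 9 (mm9, plus strand), a span longer than its 60 bases.

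Stra6 probe: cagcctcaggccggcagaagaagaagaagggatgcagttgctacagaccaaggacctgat

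Given here are the 3 genes, out of 13897 compared, whose course over the arrays was most like that of Stra6. Trpm1, a cation channel gene, had a Pearson r of 0.998 with it over the 8 arrays, Akap7, an anchoring protein of protein kinase A, 0.997, and Notch1, a cell surface receptor, 0.996. Trpm1 read 1.97 and 0.69 in normal kidney, 0.13 and -0.23 in untreated db/db, 0.89 and 0.68 with control miRNA, and 0.90 and -0.21 with the mimic. The r is over arrays that include the high normal replicate 1, and 47 of the 13897 genes had an r above 0.9.

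Crabp1, which binds retinoic acid in the cytosol, gave a signal in db/db kidney and none well above background in normal kidney. The probe with the higher level is printed 10 times on the array and lies on chromosome 9 at 54620842 to 54620901 (mm9, plus strand). Its mean signal over spots was 13.7 and 4.72 scanner units in normal kidney, 131 and 87.7 in untreated db/db, 65.2 and 61.3 with control miRNA, and 15.6 and 42.6 with the mimic. Every spot used was well above background on the untreated and control-miRNA arrays and on mimic replicate 2, 1 of 10 spots was on mimic replicate 1, and 0 were on either normal array.

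On the log2 scale these levels were -5.34 and -6.70 in normal kidney, -2.31 and -2.88 in untreated db/db, -3.22 and -3.40 with control miRNA, and -5.30 and -3.69 with the mimic. The ranges of the 4 groups did not overlap, but mimic replicate 1 and normal replicate 1 read nearly alike and neither was well above background. Untreated db/db was at least 5.14-fold above normal kidney, taking each normal array at the higher of its own value and the lowest signal well above background there. This is a bound because normal kidney was not well above background (measured means -2.59 ± 0.40 against -6.02 ± 0.96, SD, n = 2). Control miRNA minus untreated was -0.72 (SE 0.63). Only 1 of 2 mimic arrays measured Crabp1, so mimic minus control miRNA, -1.18 (SE 0.63), and mimic minus untreated, -1.90 (SE 0.63), rest in part on a value at background. From mimic replicate 2 alone, which was well above background, these differences were -0.38 and -1.10. The comparisons within db/db share arrays and are not independent of each other. Under a normexp background correction, which lifts dim signals, untreated minus normal was 0.98, mimic minus control miRNA -0.35 and mimic minus untreated -0.75.

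The other Crabp1 probe, at 54616192 to 54616251 on the same strand, is assigned by the array annotation to another Crabp1 transcript. It was not well above background on any array, with levels of -5.75 and -6.83 in normal kidney, -5.57 and -5.90 in untreated db/db, -5.16 and -5.55 with control miRNA, and -7.17 and -5.32 with the mimic. The probes thus disagreed: the probe farther along the plus strand separated db/db from normal kidney and this one stayed at background everywhere. Its sequence is shown because it is the part of Crabp1 that gave no signal.

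Crabp1 second probe: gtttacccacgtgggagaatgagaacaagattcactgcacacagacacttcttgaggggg

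**Figure D2:**
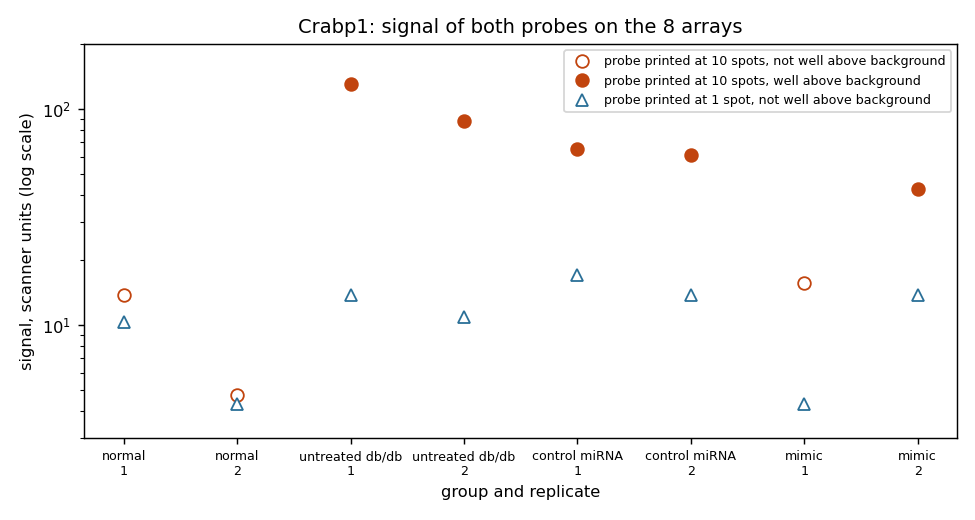
Signal of both Crabp1 probes in scanner units on a log axis (y) on each of the 8 arrays (x). Circles are the mean over the spots of the probe printed 10 times, triangles the probe printed once, and filled symbols arrays on which it was well above background. The repeated probe reached 42.6 to 131 units on 5 db/db arrays, and the other probe was never well above background.

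Aldh1a1, a retinal dehydrogenase that makes retinoic acid, had higher levels in all 3 db/db groups than in normal kidney. Its level was 3.77 and 3.28 in normal kidney, 4.51 and 4.76 in untreated db/db, 4.32 and 5.13 with control miRNA, and 4.53 and 4.58 with the mimic. All 6 db/db arrays lay above both normal arrays, and the 3 db/db groups overlapped each other. Untreated minus normal was 1.11 (SE 0.30), a 2.16-fold higher mean, and 0.87 to 1.35 over every alternative processing tried. Control miRNA minus untreated was 0.09 and mimic minus control miRNA was -0.17 (both SE 0.30), or -0.15 without mimic replicate 1. In order of mean, control miRNA (4.73 ± 0.58, SD, n = 2), untreated (4.64 ± 0.18) and mimic (4.55 ± 0.03) did not differ beyond their spread, and normal (3.53 ± 0.34) came last.

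Aldh1a7, a rodent paralog of Aldh1a1 and its neighbour on chromosome 19, showed no such separation of the groups. Its level was 4.10 and 3.51 in normal kidney, 4.01 and 4.12 in untreated db/db, 3.59 and 4.33 with control miRNA, and 3.66 and 4.05 with the mimic. The groups overlapped in all 4 comparisons. Untreated minus normal was 0.27 (SE 0.31) and mimic minus control miRNA was -0.11 (SE 0.31), which turned to 0.08 without mimic replicate 1. The 4 group means lay between 3.80 and 4.07, and no neighbours among them differed beyond their spread.

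Because both genes were read on each array, the ratio of Aldh1a1 to Aldh1a7 removes what the array or mouse gave to both. Its log2 value was -0.33 and -0.22 in normal kidney, 0.50 and 0.64 in untreated db/db, 0.72 and 0.80 with control miRNA, and 0.87 and 0.53 with the mimic. Its position has no meaning, since the probes differ, but its change between arrays does. All 6 db/db arrays lay above both normal arrays, and the group means were -0.27 ± 0.07, 0.57 ± 0.10, 0.76 ± 0.05 and 0.70 ± 0.24 (SD, n = 2). The pair of probes shared no run longer than 8 bases, at 20717764 to 20717823 (plus strand) for Aldh1a1 and 20767553 to 20767612 (minus strand) for Aldh1a7 on chromosome 19 (mm9).

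**Figure D3:**
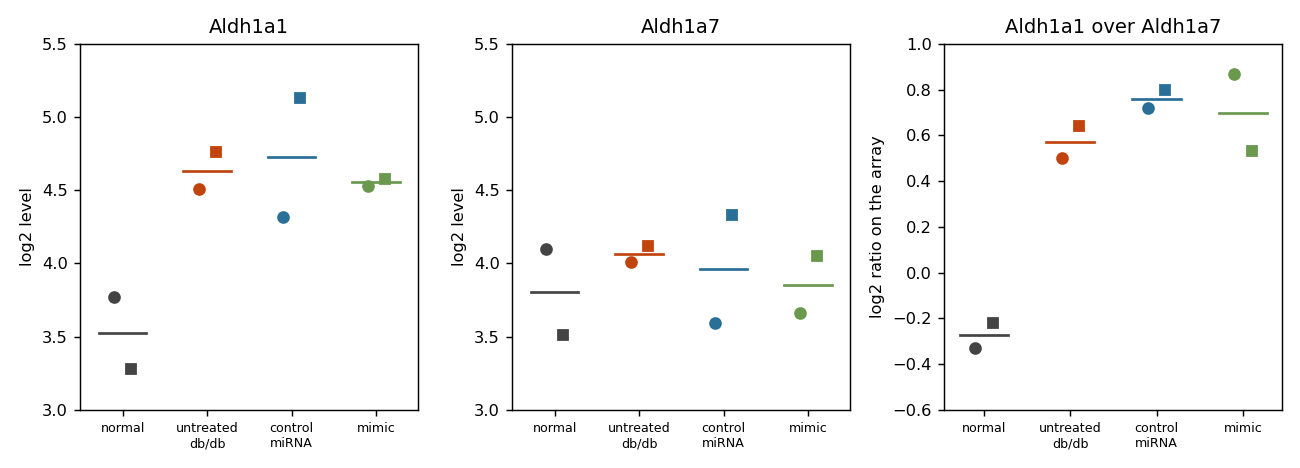
Log2 levels of Aldh1a1 and Aldh1a7 (left and middle, y axis) and the log2 ratio of the pair on each array (right) in the 4 groups (x axis). Circles are replicate 1, squares replicate 2 and bars group means of 2 mice. The ratio is -0.33 and -0.22 on the normal arrays and 0.50 to 0.87 on the db/db arrays.

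The bases before the start sites of these neighbours are shown because the genes are close copies whose levels differed unlike between the groups. Of the 9 genes, 7 had start sites in the RefSeq promoter table (GRCm38.p6), 14 in all. The 250 bases before an Aldh1a1 start (chr19:20601718-20601967, plus strand) and the Aldh1a7 start (chr19:20727557-20727806, minus strand) aligned with 183 identical bases (73.2%), and the longest shared run was 65 bases. Capitals mark TGACCC, which is GGGTCA read on the other strand.

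Aldh1a1 upstream: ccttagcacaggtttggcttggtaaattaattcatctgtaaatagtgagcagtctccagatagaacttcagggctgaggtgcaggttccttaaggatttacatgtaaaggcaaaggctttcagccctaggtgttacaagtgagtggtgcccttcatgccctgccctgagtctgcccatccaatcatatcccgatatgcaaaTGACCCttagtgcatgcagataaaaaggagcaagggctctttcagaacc
Aldh1a7 upstream: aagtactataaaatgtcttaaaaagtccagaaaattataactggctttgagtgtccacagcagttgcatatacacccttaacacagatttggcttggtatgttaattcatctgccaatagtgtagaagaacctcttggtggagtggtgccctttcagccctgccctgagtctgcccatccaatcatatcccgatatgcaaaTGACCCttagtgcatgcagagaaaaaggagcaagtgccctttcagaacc

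Both windows held the hexamer 49 bases before the start, and in both it lay inside nearly the same stretch. The search, on both strands, took AGGTCA, the sequence that retinoic acid receptors bind, with its relaxed forms, which were first AGTTCA, next GGGTCA, and last GGTTCA. A hexamer occurred in 3 of the 14 windows of these genes (Aldh1a1, Aldh1a7 and Rbp4) and in 38.6% of 32851 promoter windows. Direct repeats of a hexamer with 1, 2 or 5 bases between occurred in 0 of the 14, and in 0.164%, 0.174% and 0.0883% of all windows. A match is a run of letters, and no match says only that these letters are not in the window.

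Aldh1a2, the retinal dehydrogenase that supplies retinoic acid in the embryo and in mesothelium and stroma, was higher on all 6 db/db arrays than on both normal arrays. Its level was -1.83 and -2.0 in normal kidney, -0.56 and -0.74 in untreated db/db, -0.53 and -1.06 with control miRNA, and 0.78 and -1.28 with the mimic. The mimic arrays were the highest and the lowest of the 6 db/db arrays and lay 2.06 apart. Untreated minus normal was 1.27 (SE 0.62), a 2.41-fold higher mean, and 1.00 under the normexp correction. Mimic minus control miRNA was 0.54 (SE 0.62) and turned to -0.49 without mimic replicate 1. Mimic minus untreated was 0.40 (SE 0.62) and turned to -0.63 without that array. In order of mean, mimic (-0.25 ± 1.46, SD, n = 2), untreated (-0.65 ± 0.13) and control miRNA (-0.79 ± 0.37) did not differ beyond their spread, and normal was last (-1.92 ± 0.12).

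Podocyte markers were higher on the db/db arrays too. All 8 were detected on every array, with summed levels of 17.2 and 18.0 in normal kidney, 39.4 and 38.9 in untreated db/db, 39.2 and 35.4 with control miRNA, and 64.5 and 41.2 with the mimic. Macrophage markers (8 of 8 on every array) lay the other way between normal and untreated kidney. Their sums were 26.2 and 25.4 against 12.5 and 13.2. The highest sum was on mimic replicate 1 (46.1), the array with most Aldh1a2, and it rested mostly on Lyz2 (4.96). Adgre1, Cd68, C1qa, C1qb and C1qc were also highest on that array. Csf1r (3.03) and Mrc1 (-2.92) were lower there than on both normal arrays. Mesothelial markers (3 of 6 on every array, Lrrn4 not above background on any) had their highest sums in normal kidney, at 7.67 and 6.59. On the db/db arrays the sums were 4.88 to 6.33. In normal kidney they rested mostly on Gpm6a (2.10 and 2.34). Gpm6a and Msln were lower on every db/db array, and Upk3b and Krt19 overlapped. Wt1, also a podocyte marker, went the other way, at 0.14 and 0.01 in normal kidney and 1.09 to 1.57 in db/db. The part of these cells in the Aldh1a2 and Aldh1a1 levels was not tested.

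The genes whose course was most like that of Aldh1a2 were Loxl2, a lysyl oxidase of matrix (r = 0.992 over the 8 arrays), S100a4, a calcium-binding protein of fibroblasts and leukocytes (0.985), and Fbxw17 (0.983). An r above 0.9 was found for 242 of 13897 genes. Those most like Aldh1a1 were Boc (0.987), Cbr3, a carbonyl reductase (0.976), and Ppip5k1 (0.973), with 102 genes above 0.9. These values describe points that share arrays and mice.

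Aldh1a3, the third retinal dehydrogenase of the family, was high on 1 array. Its level was 0.93 and -4.18 in normal kidney, -3.42 and -3.67 in untreated db/db, -3.38 and -4.39 with control miRNA, and -3.66 and -4.31 with the mimic. The normal mice were 34.6-fold apart, and the other 7 arrays spanned -4.39 to -3.38. Untreated minus normal was -1.92 (SE 1.49) and turned to 0.64 without normal replicate 1. The pair of other Aldh1a3 probes was not well above background on any array, although one read -4.86 on normal replicate 1 and -7.44 to -6.95 elsewhere.

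The summed levels of fat cell and urothelial markers were also highest on normal replicate 1. Cidea, a lipid droplet protein of fat cells, read 2.85 there and -2.26 in the other normal kidney, and -4.47 to -3.18 in db/db. Adipoq, Cfd, Retn, Cidec and Fabp4 were also highest there, but the other fat cell markers were not. Plin1 was higher on normal replicate 2 (-3.85 against -4.02) and Plin4 on mimic replicate 1 (-0.07 against -0.57). Lep was at its lowest on normal replicate 1 (-1.91). The urothelial markers summed to 12.8 there and 1.10 to 6.46 on the other arrays, though Krt5 and Krt20 were highest on mimic replicate 1. The genes most like Aldh1a3 over the arrays were Thrsp, a regulator of fat synthesis (r = 0.983), Pparg, the nuclear receptor of fat cells (0.962), and Gsk3b, a kinase (0.957), and normal replicate 1 was the highest array for each. The part of fat or urothelium in the Aldh1a3 level was not tested.

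**Figure D4:**
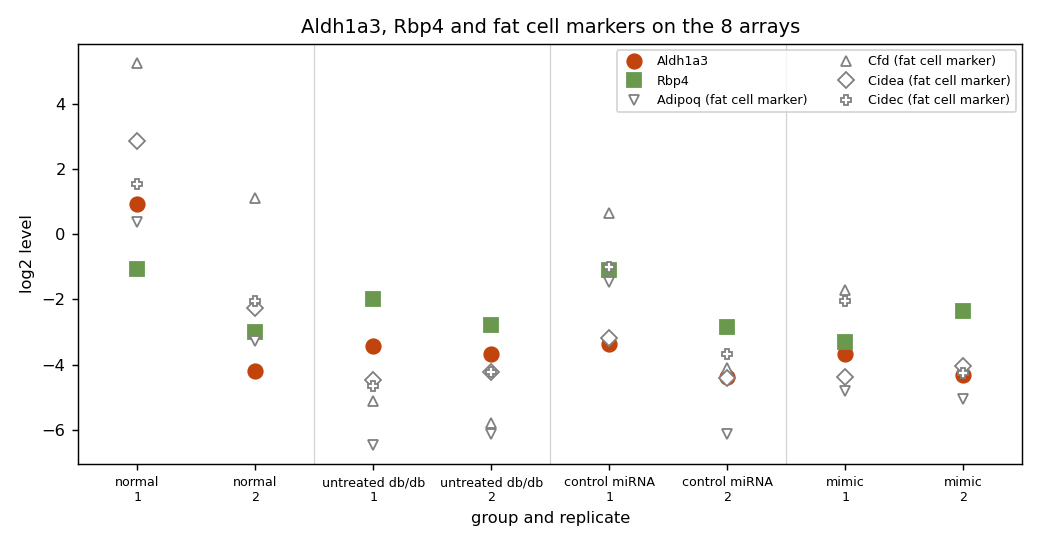
Log2 levels (y axis) of Aldh1a3, Rbp4 and 4 fat cell markers on each array (x axis, group and replicate). Filled symbols are the retinoid genes and open symbols the markers. On normal replicate 1, Aldh1a3 reads 0.93, Adipoq 0.39 and Cidea 2.85. Rbp4 and Adipoq are next highest on control-miRNA replicate 1 (-1.10 and -1.45), and Cfd and Cidea on normal replicate 2. The markers Plin1, Lep, Retn, Plin4 and Fabp4 are not drawn, and of these Plin1, Lep and Plin4 are not highest on normal replicate 1.

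Dhrs3, a reductase that returns retinal to retinol and whose gene is known to respond to retinoic acid, varied little between arrays. Its level was 6.33 and 6.15 in normal kidney, 5.89 and 6.11 in untreated db/db, 6.08 and 6.19 with control miRNA, and 5.44 and 5.88 with the mimic. Both mimic arrays lay below every other array. Untreated minus normal was -0.24 (SE 0.18). Mimic minus control miRNA was -0.47 (SE 0.18), a 1.39-fold lower mean, and -0.25 without mimic replicate 1. Mimic minus untreated was -0.34 (SE 0.18), or -0.12 without mimic replicate 1. The other Dhrs3 probe read 0.65 and 0.74, 0.51 and 0.72, 0.70 and 0.82, and -0.11 and 0.45 in the same groups. With it, mimic minus control miRNA was -0.59 and both mimic arrays were again the lowest. Group means of the first probe ran from normal (6.24 ± 0.13, SD, n = 2) through control miRNA (6.14 ± 0.08) and untreated (6.00 ± 0.15) to mimic (5.66 ± 0.31), each within the spread of its neighbour except untreated and mimic, which did not overlap.

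The remaining genes of the pathway were read from a list of 91, of which 74 were tested. Between untreated db/db and normal kidney, 7 of the 74 passed (9.46%, against 3.50% of all genes), of which 3 rose and 4 fell. At an unadjusted p under 0.05 there were 28 of 74 (37.8%, against 24.7% of all genes), and the median log2 difference of the list was 0.02, against -0.04 over all genes. The list was written with earlier results of these arrays known and is not independent evidence. Calls over all genes split into 278 higher and 505 lower, and into 494 higher and 467 lower after quantile normalization, under which the same 7 list genes passed.

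**Figure D5:**
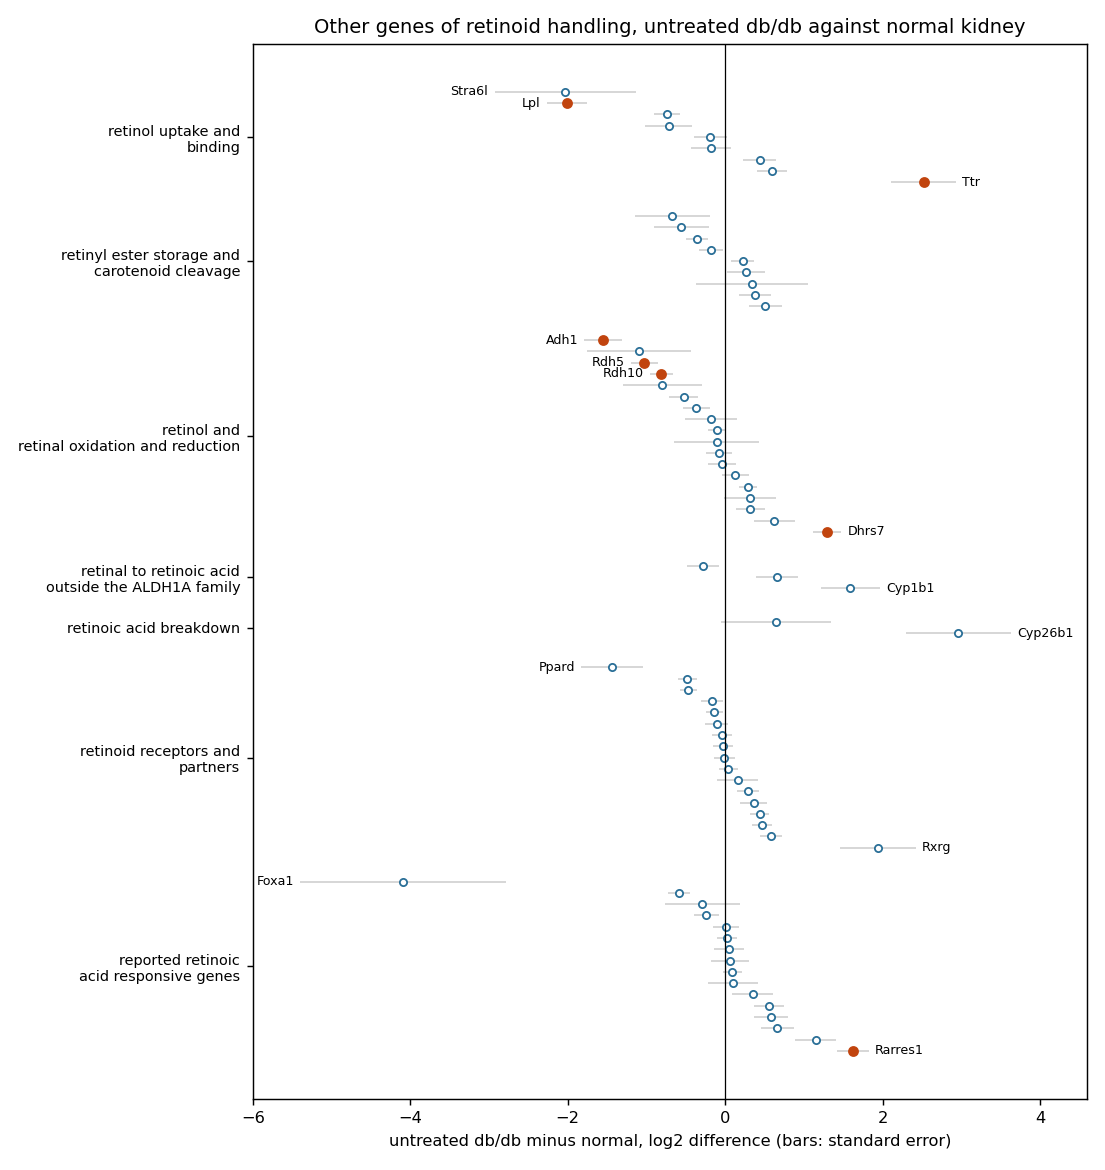
Log2 difference of untreated db/db minus normal kidney (x axis, bars standard errors) for the 74 other retinoid genes, 1 gene a row, grouped by role (y axis). Filled points passed an adjusted p of 0.05 in limma, and those, with the others that differed most, are named. Ttr, Dhrs7 and Rarres1 rose and Lpl, Adh1, Rdh5 and Rdh10 fell.

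Among 9 genes of retinol uptake and binding, 1 rose and 1 fell. Ttr, the plasma partner of Rbp4, rose by 2.52 (SE 0.41, limma adjusted p = 0.036), and the difference was 1.06 and no longer passed under the normexp correction (limma adjusted p = 0.057). It read -4.55 and -4.79 in normal kidney, where 1 of 2 arrays was well above background, and -2.43 and -1.87 in untreated db/db. Its other probe did not pass the filter. The 8 markers of hepatocytes, which make most Ttr, summed to 141 and 148 in normal kidney and 106 and 141 in untreated db/db. Of them, 2, Ahsg and Hpx, were not above background on any array. The sum rested mostly on Serpina1a, which with Cyp3a11 was lower on both untreated arrays than on both normal arrays. Alb (-0.50 and -0.46 in normal kidney, 0.72 and 1.09 in untreated db/db), Cyp2c29 and Fgb were higher, and Apoa2 overlapped. The part of these markers in the Ttr difference was not tested. Lpl, lipoprotein lipase, which also frees retinyl esters from lipoproteins, fell by 2.01 (SE 0.26, limma adjusted p = 0.022), from 5.61 and 5.47 to 3.39 and 3.68. All 5 other Lpl probes that passed the filter were lower too. Fat cell markers summed to 73.5 and 10.3 in normal kidney and 10.9 and 9.46 in untreated db/db. Except on normal replicate 1, that sum rested mostly on Fabp4. Adipoq, Plin1, Cfd, Retn, Cidec and Cidea were lower on both untreated arrays than on both normal arrays, and Lep, Plin4 and Fabp4 overlapped. Cfd read 5.25 and 1.10 in normal kidney and -5.10 and -5.78 in untreated db/db. The part of fat cells in the Lpl difference was not tested. Stra6l, a second retinol transporter gene, had a difference of -2.03 (SE 0.90) that did not pass (limma adjusted p = 0.226).

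Of 18 genes that oxidise retinol or reduce retinal, 1 rose and 3 fell. Dhrs7, a short-chain dehydrogenase, rose by 1.29 (SE 0.18, limma adjusted p = 0.025), from 2.76 and 2.47 to 4.00 and 3.80. Adh1, an alcohol dehydrogenase that oxidises retinol, fell by 1.55 (SE 0.24, limma adjusted p = 0.032), from 5.62 and 6.18 to 4.26 and 4.45. Rdh5 fell by 1.03 (SE 0.17, limma adjusted p = 0.035) and Rdh10, the retinol dehydrogenase that feeds retinoic acid synthesis in the embryo, by 0.81 (SE 0.15, limma adjusted p = 0.045). Proximal tubule markers summed to 1839 and 2180 in normal kidney and 1366 and 1408 in untreated db/db, but did not all go 1 way. Lrp2, Cubn, Slc22a6, Slc27a2, Acsm2 and Kap were lower on both untreated arrays than on both normal arrays. Slc34a1, Slc5a2, Slc5a12 and Slc22a8 were higher. The part of the proximal tubule in the differences of these dehydrogenase genes was not tested.

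No gene passed in 4 of the roles, and 1 of 16 reported retinoic acid responsive genes did. Rarres1, named for its response to retinoids, rose by 1.62 (SE 0.20, limma adjusted p = 0.021), from -3.19 and -2.95 to -1.53 and -1.37. Cyp26b1, an enzyme that breaks down retinoic acid, read -1.13 and -2.24 in normal kidney, 1.29 and 1.26 in untreated db/db, 1.33 and 1.61 with control miRNA, and 1.92 and -0.10 with the mimic. Every db/db array lay above both normal arrays, and the difference of 2.96 (SE 0.67) did not pass (limma adjusted p = 0.067). Its relative Cyp26a1 differed by 0.64 (SE 0.70). Cyp1b1, which can oxidise retinal, differed by 1.59 (limma adjusted p = 0.073), and Aldh1b1 by 0.66 (limma adjusted p = 0.203). Among 17 receptors and partners the greatest differences were in Rxrg (1.94, limma adjusted p = 0.081) and Ppard (-1.44, limma adjusted p = 0.092). Of 9 genes of ester storage and carotenoid cleavage, Lrat, which esterifies retinol, differed most (-0.67), then Bco2 (-0.56). Foxa1, a transcription factor of urothelium, read -1.20 and -3.37 in normal kidney and was not well above background in untreated db/db, a difference of at least 7.94-fold that did not pass (limma adjusted p = 0.128). The urothelial markers summed to 12.8 and 3.45 against 1.12 and 1.10 on the same arrays, and their part was not tested.

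None of these calls held when a normal or an untreated array was left out: 0 of the 7 genes passed without normal replicate 1, normal replicate 2, untreated replicate 1 or untreated replicate 2. Without either control-miRNA array, Rarres1 and Rdh5 alone of the 7 passed. Without either mimic array more list genes passed, all 7 among them, and more genes passed over all genes too.

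In the 3 comparisons within db/db mice, 0 of the 74 list genes and 0 of all 22368 passed in limma. At an unadjusted p under 0.05, list genes numbered 2 for control miRNA against untreated, 10 for mimic against control miRNA and 13 for mimic against untreated, and over all genes 724, 2082 and 3104 did. The smallest limma adjusted p among list genes was 0.233 for mimic against control miRNA and 0.119 for mimic against untreated. With 1 mimic array left, the number of list genes that passed in those comparisons depended on which mimic array was left out. The same was so over all genes, so nothing is read from it about the list. For the genes that had risen, mimic minus control miRNA was 0.40 for Ttr (SE 0.41, -0.20 without mimic replicate 1), 0.01 for Dhrs7 (SE 0.18, -0.13 without it) and 0.04 for Rarres1 (SE 0.20, 0.13 without it). For those that had fallen it was -0.49 for Lpl (SE 0.26, -0.12 without mimic replicate 1), -0.41 for Adh1 (SE 0.24, -0.18 without it), 0.01 for Rdh5 (SE 0.17, 0.06 without it) and -0.14 for Rdh10 (SE 0.15, also -0.14 without it). Cyp26b1 was -0.56 (SE 0.67) in that comparison and -1.58 without mimic replicate 1.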

How the data were processed

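Kidney RNA was labelled with Cy3 and hybridised to Agilent 1-colour arrays, and images were read with Agilent Feature Extraction 12.0.3.1, per the submitters' processing notes. The deposited scanner files give intensity per spot, background-corrected per the file headers. The deposited value table holds linear values that the comparison with the scanner files shows to be a ratio to each probe's median over the arrays. Its column medians were 0.971 to 1.08. What scaling preceded the centring stays unknown.

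Outlier spots were left out (4 probes lost), and the intensities of the spots of a probe were averaged. That mean was divided by the array's 75th percentile over non-control spots (489 to 651 scanner units) and taken to log2. Probes well above background on both arrays of a group were kept (33639), and the highest probe on average stood for a gene. limma 3.58.1 (lmFit, eBayes, R 4.3.3) fitted 4 group means over 8 arrays, with Benjamini-Hochberg adjustment over 22368 genes, and was tested on simulated data. Only 2 arrays a group limit the precision. Names came from RefSeq by accession (33766 probes), symbol (9864) or synonym (310), and otherwise from the array (12661).

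The members and gene lists were chosen with earlier results of these data known. Named genes were all members with every probe, list genes that passed in any comparison, the 2 most different per role, the 3 most alike over the arrays to each member detected on at least 6 arrays whose group means span at least 1, and defining cell markers. Protein sequences and a genome were not used here, so probe positions (mm9) are those of the array annotation. Alternatives were another background correction, quantile normalization, other filters and probe rules, array weights, fewer arrays, a replicate block and the deposited table.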

Additional observations from a re-analysis of the deposited data

How the results depend on the processing

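Of 128 differences of the measured retinoid genes recomputed under 4 settings that alter the values, 1 had the other sign and 5 moved by more than 1 SD, all under the normexp correction (Crabp1 in every comparison and Aldh1a2 against normal). Leaving out 1 array gave the other sign in 22 of 256; with 2 arrays a group it cannot move a mean by more than 1 SD of that group. Between untreated db/db and normal kidney, limma called 783 genes and 7 of the other retinoid genes. These counts were 2004 and 16 with normexp, 292 and 2 with no filter on dim probes (36824 genes tested), 2314 and 17 with array weights, and 2376 and 14 from the 4 arrays compared. Leaving out 1 array gave 19 to 3340 genes and 0 to 20 retinoid genes: 42 without normal replicate 1, 49 without normal replicate 2, 19 and 21 without untreated replicate 1 or 2, 208 without either control-miRNA array and 3340 without either mimic array. Mimic against control miRNA, 0 calls, ranged from 0 to 3087 genes (113 without mimic replicate 1) and 0 to 18 retinoid genes, and mimic against untreated from 0 to 4155 and 0 to 21, with the highest counts without mimic replicate 2. A lone array is assumed to vary like the other groups. The causes of these shifts were not tested. Over the settings, the adjusted p of the 7 genes ran from 0.00521 to 0.154 for Lpl, 0.00642 to 0.211 for Ttr, 0.00856 to 0.171 for Dhrs7, 0.0101 to 0.157 for Rarres1, 0.0117 to 0.195 for Adh1, 0.0178 to 0.205 for Rdh5 and 0.0244 to 0.224 for Rdh10. With the replicate block 473 genes and 5 retinoid genes were called, 4 of them among the 7; same-numbered arrays deviated together only weakly (r = -0.019 to 0.159), so the numbers are not shown to pair mice. The slide could not be a block, since all arrays share it. Dim probes such as Crabp1 in normal kidney give only bounds.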
